A study of Mus musculus with 2 samples.

Results

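Transcripts of 10 genes that are well known targets of the hypoxia-inducible factors (HIFs) were compared between MIN6 cells held at high and at low glucose. The genes were Bnip3, Bnip3l, Vegfa, Egln1, Egln3, Ankrd37, Hilpda, Ddit4, Adm and P4ha1. They were taken by symbol from the 55466 genes listed for each library, and each symbol matched 1 row. MIN6 is a mouse insulinoma line that stands in for the insulin-secreting beta cell of the pancreas. Cells grown in DMEM were first equilibrated for 0.5 h in 2.8 mM glucose. They were then kept for 1 h in KRBH, a bicarbonate-buffered salt solution, with either 25 mM glucose, labelled hyperglycemic, or 2.8 mM glucose, labelled hypoglycemic. No genetic change or drug is named for either group, and the labels name no change in oxygen. There was 1 library per concentration. No difference below could therefore be set against the spread between replicates, no test between conditions was possible, and every difference is one between 2 libraries.

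HIFs are transcription factors made of an oxygen-sensitive alpha subunit and the stable partner ARNT. In well oxygenated cells, prolyl hydroxylases encoded by the Egln genes modify the alpha subunit, which is then recognised by the VHL protein and degraded. When oxygen is scarce the alpha subunit accumulates and the dimer binds short DNA elements with the core ACGTG or GCGTG near genes for mitophagy, angiogenesis, glycolysis and collagen maturation. In beta cells, respiration increases with glucose and uses up oxygen, and the response has been studied together with glucose for that reason.

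None of the expressed members was as much as 1.5-fold apart between the libraries. Of the 10 genes, 8 had a mean of at least 1 FPKM (fragments scaled to transcript length and to library size) over both libraries and are called expressed here. At 25 mM, 0 of these were higher and 0 were lower by 1.5-fold or more. Over all 12694 expressed genes, 1.95% were higher and 2.51% lower by that much, so a count of 0 among 8 genes is near the background. Bnip3 and Vegfa, the most abundant members, stood at 0.723 and 0.774 of their 2.8 mM level at 25 mM. Ddit4 and Egln1 stood within 5% of their level at 2.8 mM.

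Promoter sequences of 4 members are shown because the cores named above are the sequences that HIFs bind. The 250 bases before the transcription start were read from RefSeq promoters on GRCm38.p6, for 9 of the 10 genes with 11 starts. Bnip3l had no entry. Both cores were searched on both strands. Capitals in the sequences below mark every match, and CACGT and CACGC are the cores read on the opposite strand. The 4 genes include 3 that were lower at 25 mM (Bnip3, P4ha1 and Adm) and 1 that was slightly higher (Ankrd37).
Bnip3, chr7:138909507-138909756, minus strand: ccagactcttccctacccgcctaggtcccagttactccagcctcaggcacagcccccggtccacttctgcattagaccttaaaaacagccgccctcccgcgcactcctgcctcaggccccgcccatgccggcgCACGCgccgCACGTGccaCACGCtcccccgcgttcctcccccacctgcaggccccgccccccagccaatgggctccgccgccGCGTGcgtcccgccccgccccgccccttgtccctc
P4ha1, chr10:59323046-59323295, plus strand: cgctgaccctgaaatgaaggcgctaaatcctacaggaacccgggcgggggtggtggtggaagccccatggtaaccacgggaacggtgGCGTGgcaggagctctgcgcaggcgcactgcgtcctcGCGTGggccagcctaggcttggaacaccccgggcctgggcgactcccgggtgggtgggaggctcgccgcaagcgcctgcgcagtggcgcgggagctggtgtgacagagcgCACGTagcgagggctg
Adm, chr7:110627407-110627656, plus strand: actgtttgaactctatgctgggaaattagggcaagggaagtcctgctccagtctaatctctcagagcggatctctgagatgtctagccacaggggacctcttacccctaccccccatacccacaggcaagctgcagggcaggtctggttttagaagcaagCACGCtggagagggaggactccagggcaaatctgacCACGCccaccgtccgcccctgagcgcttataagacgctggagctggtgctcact
Ankrd37, chr8:45999851-46000100, minus strand: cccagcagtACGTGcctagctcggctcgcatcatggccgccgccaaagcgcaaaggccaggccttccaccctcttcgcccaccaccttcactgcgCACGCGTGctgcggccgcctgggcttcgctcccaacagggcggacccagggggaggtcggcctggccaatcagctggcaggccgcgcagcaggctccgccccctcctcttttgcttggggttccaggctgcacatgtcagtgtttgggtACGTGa

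At least 1 core was present before 9 of the 11 starts, or 81.8%, against 38.6% of all 32851 promoters and 57.3% of the 11639 promoters of expressed genes. The core ACGTG was found before 8 of the 11, or 72.7%, against 16.6% of all promoters and 22.1% of those of expressed genes. The share of G and C in the member windows ran from 48.4% to 86%. The promoter sets were not matched for it, and the 2 Hilpda windows overlap. Bnip3 had 5 matches, of which 2 overlap in the palindrome CACGTG, a sequence that is also the E-box of many other basic helix-loop-helix factors and was present in 6.02% of all promoters. Ankrd37 had 4 matches, with 2 of them overlapping on opposite strands. P4ha1 had 3, Adm 2, Ddit4 2 and Egln1 2. Egln3 had 1 match. Vegfa had 0 matches before its first start and 2 before its second, and Hilpda 0 before its first start and 3 before its second. The second windows lie partly within annotated exons of the same genes, with 218 of 250 bases exonic for Vegfa and 121 for Hilpda. The second Vegfa start, at 46025163, lies well inside the gene. The bases just after it matched no annotated transcript of the gene. Those compared for Egln3 matched none either, but the Egln3 start, at 54203874, lies just before the annotated start of that gene, at 54203860. Both windows are counted in the shares above. The genes that were lower at 25 mM and those that were higher both had cores, and a match in these letters is not by itself a binding site.

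**Figure D1:**
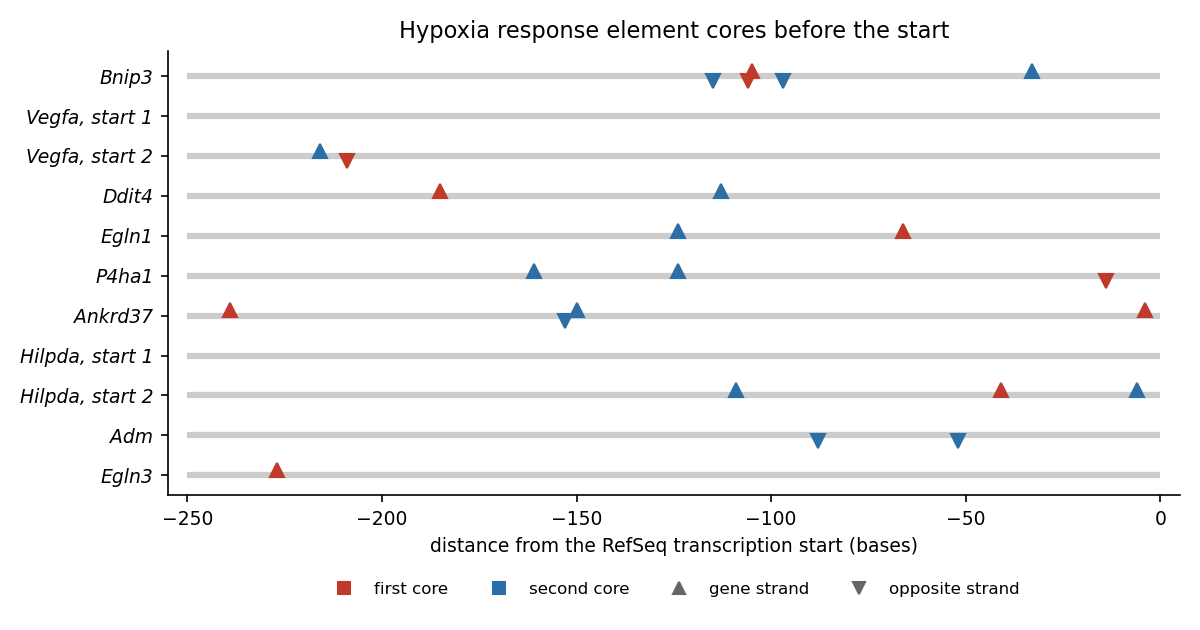
Positions of the hypoxia response element cores in the 250 bases before each RefSeq start of 9 member genes, with genes in order of their mean level and the start at 0 on the right. Red marks the core ACGTG and blue GCGTG, with upward triangles on the gene's strand and downward triangles on the opposite one; all starts have a core except the first of Vegfa and the first of Hilpda.

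The marker profile was that of an insulin-producing line. The 9 beta-cell markers checked (Ins1, Ins2, Iapp, Pdx1, Mafa, Nkx6-1, Slc30a8, Pcsk1 and Chga) were all expressed, with means of at least 33.3 FPKM, and summed to 65356.8 FPKM at 25 mM against 75135.5 FPKM at 2.8 mM. Markers of other cell types were near 0. The 5 endothelial markers summed to 0.0417 FPKM at 25 mM, against 0.0785 FPKM at 2.8 mM, with Pecam1, Cdh5, Kdr and Emcn listed at 0, and the 4 acinar markers were all listed at 0. The 5 fibroblast markers summed to 0.157 FPKM at 25 mM against 0.385 FPKM at 2.8 mM, with Col3a1 at 0. Among 4 leukocyte markers only Cd68 was expressed, and the list summed to 4.09 FPKM at 25 mM against 5.25 FPKM at 2.8 mM, with Ptprc and Cd3e at 0. Among 3 ductal markers only Krt7 was, and the list summed to 2.10 FPKM at 25 mM against 1.89 FPKM at 2.8 mM, with Krt19 and Sox9 at 0. From the steps between low FPKM values, the 25 mM library held 16780000 fragments, against 19660000 for the 2.8 mM library. In bulk RNA, fewer cells making a transcript and less of it per cell cannot be told apart.

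The oxygen-sensing arm of the pathway was at similar levels in both libraries. Hif1a, the gene of the alpha subunit HIF-1α, stood at 32.6 FPKM at 25 mM, against 32.0 FPKM at 2.8 mM, a log2 change of 0.03. Each log2 change is that of the 25 mM value over the 2.8 mM value after a pseudocount of 1 FPKM was added to both, which understates the change of low genes. Epas1, for the alpha subunit HIF-2α, and Hif3a were listed at 0 in both libraries, so Hif1a was the only alpha subunit gene above 0.

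Among the prolyl hydroxylases, Egln1, which encodes PHD2, the main oxygen sensor and itself a HIF target, was at 24.2 FPKM at 25 mM, against 23.1 FPKM at 2.8 mM (log2 change 0.06). Egln3, which encodes PHD3 and is strongly induced by HIF in other cells, was listed at 0 FPKM in both libraries. Egln2, for PHD1, was the most abundant of the family at 37.3 FPKM at 25 mM, against 37.8 FPKM at 2.8 mM. Egln1 was therefore at 0.648 and 0.610 of the Egln2 level, at 25 mM and at 2.8 mM. Hif1an, for the asparaginyl hydroxylase that blocks coactivator binding, was at 20.1 FPKM at 25 mM against 21.6 FPKM at 2.8 mM. Vhl was at 15.3 FPKM at 25 mM, against 15.7 FPKM at 2.8 mM, and Arnt at 18.2 FPKM at 25 mM against 19.1 FPKM at 2.8 mM.

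Of 18 genes listed for HIF subunits and regulators, 15 were expressed and 0 of them were 1.5-fold apart, with a median log2 change of -0.02, against -0.02 over all expressed genes. The lowest changes were those of the coactivator gene Ep300 (9.15 FPKM at 25 mM against 10.1 FPKM at 2.8 mM) and the ubiquitin ligase gene Rbx1 (53.0 FPKM at 25 mM against 58.1 FPKM at 2.8 mM). At the other end were Arnt2, an Arnt paralog (2.88 FPKM at 25 mM against 2.38 FPKM at 2.8 mM), and Eloc, for elongin C of the VHL complex (175.4 FPKM at 25 mM against 155.4 FPKM at 2.8 mM).

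The mitophagy receptor gene Bnip3 was the most abundant member. BNIP3 sits in the outer mitochondrial membrane and tethers mitochondria to the autophagy machinery. The gene (ENSMUSG00000078566, GRCm38 chromosome 7, 138890836 to 138909519) was at 73.7 FPKM at 25 mM, against 101.9 FPKM at 2.8 mM, a log2 change of -0.46. Of 2023 protein-coding genes with 0.5 to 2 times its mean FPKM, 0.643% had a change as low or lower and 0.84% were as far apart in either direction. Between 556 and 1839 fragments lay behind the value at 25 mM and between 861 and 2939 behind that at 2.8 mM, depending on which transcript of at least 500 nt is assumed. With the smaller numbers, the 95% interval of the log2 ratio without a pseudocount was -0.62 to -0.31, from an exact (Clopper-Pearson) binomial interval. These intervals hold only the error of counting fragments in 2 libraries and say nothing of the spread between cultures.

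Bnip3 has close copies, which limits how its reads could be assigned. Of the 31-base words (31-mers) of its longest transcript, 74.7% also occur in transcripts of other annotated genes, on either strand. The largest shares were those of the non-coding RNA genes AC160336.1 (61.0%) and Gm45507 (24.1%). AC160336.1 was at 0.00772 FPKM at 25 mM against 0.0127 FPKM at 2.8 mM. The 6 genes sharing at least 1% of them summed to 19.9 FPKM at 25 mM, against 24.7 FPKM at 2.8 mM. Among these, the processed pseudogene Gm16439 stood at 11.9 FPKM at 25 mM against 13.8 FPKM at 2.8 mM, and Gm14506 at 4.24 FPKM at 25 mM against 5.71 FPKM at 2.8 mM. With all 6 rows added to Bnip3 the log2 change was -0.43, an alternative chosen after the data were seen. The rows that share its sequence were thus also lower at 25 mM in sum. Gm45507, on the opposite strand over 22.3% of its exon bases, was listed at 0 in both libraries.

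Bnip3l, also called Nix, encodes the paralogous receptor that clears mitochondria from maturing red cells (ENSMUSG00000022051, chromosome 14, 66985239 to 67008877). Its level was 47.3 FPKM at 25 mM, against 51.3 FPKM at 2.8 mM, a log2 change of -0.11. With the shortest transcript of at least 500 nt the 95% counting interval of the log2 ratio, -0.39 to 0.15, included 0. With the longest it was -0.19 to -0.04 and did not, so this depends on the transcript assumed. Among genes of like abundance, 34.9% were as far apart. The FPKM of Bnip3 was 1.56 times that of Bnip3l at 25 mM and 1.99 times at 2.8 mM. Bnip3l shared 27.4% of its 31-mers with the pseudogene Bnip3l-ps, which was itself at 28.3 FPKM at 25 mM against 30.7 FPKM at 2.8 mM.

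The other mitophagy genes lay on both sides of 0. All 18 found were expressed, 11 were higher and 7 lower at 25 mM, 0 were 1.5-fold apart, and the median log2 change was 0.02. Phb2, for the inner membrane receptor prohibitin 2, was at 140.6 FPKM at 25 mM, against 120.2 FPKM at 2.8 mM (0.22). Bcl2l13, another outer membrane receptor gene, was at 24.1 FPKM at 25 mM, against 27.2 FPKM at 2.8 mM (-0.17), and Ulk1, for the kinase that starts autophagy, at 17.2 FPKM at 25 mM against 18.4 FPKM at 2.8 mM (-0.09).

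Vegfa encodes the secreted factor that keeps the islet capillary bed in place (ENSMUSG00000023951, chromosome 17, 46016993 to 46032369). Its level was 63.6 FPKM at 25 mM, against 82.2 FPKM at 2.8 mM, a log2 change of -0.36. Among 2332 genes of like abundance, 1.24% were as low or lower and 2.06% as far apart. Its 13 annotated transcripts include short ones, and with the shortest of at least 500 nt 261 and 362 fragments lay behind the values at 25 mM and 2.8 mM, for a 95% counting interval of -0.60 to -0.13 on the log2 ratio. Only 0.499% of its 31-mers occur in other genes.

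The related ligand gene Vegfb lay on the other side, at 70.0 FPKM at 25 mM, against 60.3 FPKM at 2.8 mM (log2 change 0.21). The order of the ligands thus differed between the libraries, with Vegfa at 0.909 times the Vegfb level at 25 mM and 1.36 times at 2.8 mM. Vegfb was the 1 expressed gene of 9 other VEGF ligand and receptor genes found. The receptor gene Kdr was listed at 0 in both libraries and Flt1 at 0 FPKM at 25 mM, against 0.0154 FPKM at 2.8 mM.

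Ddit4 encodes REDD1, an inhibitor of the growth kinase complex mTORC1 that also answers to other stresses. The gene (ENSMUSG00000020108, chromosome 10, 59949669 to 59951834) was at 48.8 FPKM at 25 mM, against 47.2 FPKM at 2.8 mM, a log2 change of 0.05. Its single transcript makes its depth well defined. The values rested on 1218 fragments at 25 mM and 1359 at 2.8 mM, and the 95% counting interval of the log2 ratio, -0.06 to 0.16, included 0. Among genes of like abundance, 67.8% were at least as far apart.

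Around Ddit4, 16 of 17 genes for its paralog, the sestrins and the TSC and mTORC1 complexes were expressed, and 0 were 1.5-fold apart (median log2 change -0.0035). Deptor, for an mTOR inhibitor, was at 2.66 FPKM at 25 mM, against 3.82 FPKM at 2.8 mM, and Tsc1, for a subunit of the complex through which REDD1 acts, at 6.38 FPKM at 25 mM against 7.73 FPKM at 2.8 mM. Txnip, which encodes a REDD1-binding arrestin relative known for its response to glucose, was at 27.8 FPKM at 25 mM, against 23.3 FPKM at 2.8 mM. Mtor was at 21.9 FPKM at 25 mM against 19.8 FPKM at 2.8 mM.

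P4ha1 encodes the catalytic subunit of collagen prolyl 4-hydroxylase (ENSMUSG00000019916, chromosome 10, 59323296 to 59373304). Transcripts of it were at 20.7 FPKM at 25 mM, against 23.6 FPKM at 2.8 mM, a log2 change of -0.18, and 21.2% of genes of like abundance were as far apart. The 95% counting interval of the log2 ratio was -0.33 to -0.05. P4ha2, the paralogous subunit gene, was also lower, at 1.56 FPKM at 25 mM, against 2.32 FPKM at 2.8 mM (-0.38). P4hb, for the shared beta subunit, was at 194.6 FPKM at 25 mM against 200.1 FPKM at 2.8 mM.

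Of the 14 genes found for collagen hydroxylation and folding, 10 were expressed, 7 of them lower and 3 higher at 25 mM, and 0 were 1.5-fold apart. Their median log2 change was -0.10. Plod2, for a lysyl hydroxylase and itself a HIF target, was at 9.01 FPKM at 25 mM, against 10.7 FPKM at 2.8 mM. P4htm, for a membrane-bound prolyl hydroxylase, was at 6.67 FPKM at 25 mM against 5.50 FPKM at 2.8 mM, and Crtap, for a collagen prolyl 3-hydroxylation partner, at 10.9 FPKM at 25 mM against 9.65 FPKM at 2.8 mM.

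Ankrd37, an ankyrin repeat gene known as a direct HIF target (ENSMUSG00000050914, chromosome 8, 45996902 to 46005707), was at 8.05 FPKM at 25 mM, against 7.50 FPKM at 2.8 mM. Its log2 change was 0.09, and 61.0% of genes of like abundance were as far apart. At least 64 and 67 fragments stood behind the values at 25 mM and 2.8 mM, and the counting interval, -0.42 to 0.62, included 0. Exons of Lrp2bp and Ufsp2 on the opposite strand cover 26.4% of its exon bases, and the labels do not say whether counting used strand. Ufsp2 was at 37.0 FPKM at 25 mM, against 39.4 FPKM at 2.8 mM, well above Ankrd37, and if counting ignored strand, reads of the 3 genes cannot be told apart where they overlap. With the rows that share its sequence added, the log2 change of Ankrd37 was -0.06, below 0.

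Hilpda encodes a small lipid droplet protein that inhibits the lipase ATGL (ENSMUSG00000043421, chromosome 6, 29272488 to 29275446). It had the largest positive change of the members, at 3.68 FPKM at 25 mM, against 3.08 FPKM at 2.8 mM (log2 change 0.20). This rests on few reads, 44 and 42 fragments at 25 mM and 2.8 mM with the longest transcript and 24 and 22 with the shorter. The counting interval with the shorter, -0.62 to 1.18, included 0.

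The genes of that lipase and of its coactivator were also higher at 25 mM, by less than 1.5-fold. Pnpla2, for ATGL itself, was at 23.8 FPKM at 25 mM, against 20.0 FPKM at 2.8 mM (log2 change 0.24), and Abhd5, for its coactivator, at 23.6 FPKM at 25 mM against 18.7 FPKM at 2.8 mM (0.32). Among the triglyceride synthesis genes, Dgat1 was at 15.1 FPKM at 25 mM, against 18.2 FPKM at 2.8 mM, and Dgat2 at 1.29 FPKM at 25 mM against 1.61 FPKM at 2.8 mM. Of 17 lipid droplet and lipolysis genes, 6 were expressed and 0 of these were 1.5-fold apart, with a median log2 change of 0.02, a sign that turned without the filter (-0.085).

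Adm encodes adrenomedullin, a vasodilator peptide (ENSMUSG00000030790, chromosome 7, 110627661 to 110629820). It was the lowest member above 0, at 0.266 FPKM at 25 mM, against 0.778 FPKM at 2.8 mM. About 5 fragments stood behind the value at 25 mM and 17 behind that at 2.8 mM. The log2 ratio without a pseudocount was -1.55, with a 95% counting interval of -3.36 to -0.07, and the log2 change with the pseudocount was -0.49. Adm did not reach a mean of 1 FPKM and is not in the counts above.

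Adm2, the gene of the related peptide intermedin, was far more abundant in both libraries, at 57.6 FPKM at 25 mM, against 54.6 FPKM at 2.8 mM (log2 change 0.08). The receptor genes were scarce. Calcrl was at 0.0643 FPKM at 25 mM against 0.0276 FPKM at 2.8 mM, and Ramp2, for the partner that makes it an adrenomedullin receptor, at 0.784 FPKM at 25 mM against 1.22 FPKM at 2.8 mM. Of the 10 related genes, 5 were expressed and 0 were 1.5-fold apart. Besides Adm2 and Ramp2, the expressed genes included Calca (1.77 FPKM at 25 mM against 1.72 FPKM at 2.8 mM) and Crcp (58.7 FPKM at 25 mM against 59.9 FPKM at 2.8 mM), and the median log2 change was 0.0095.

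**Figure D2:**
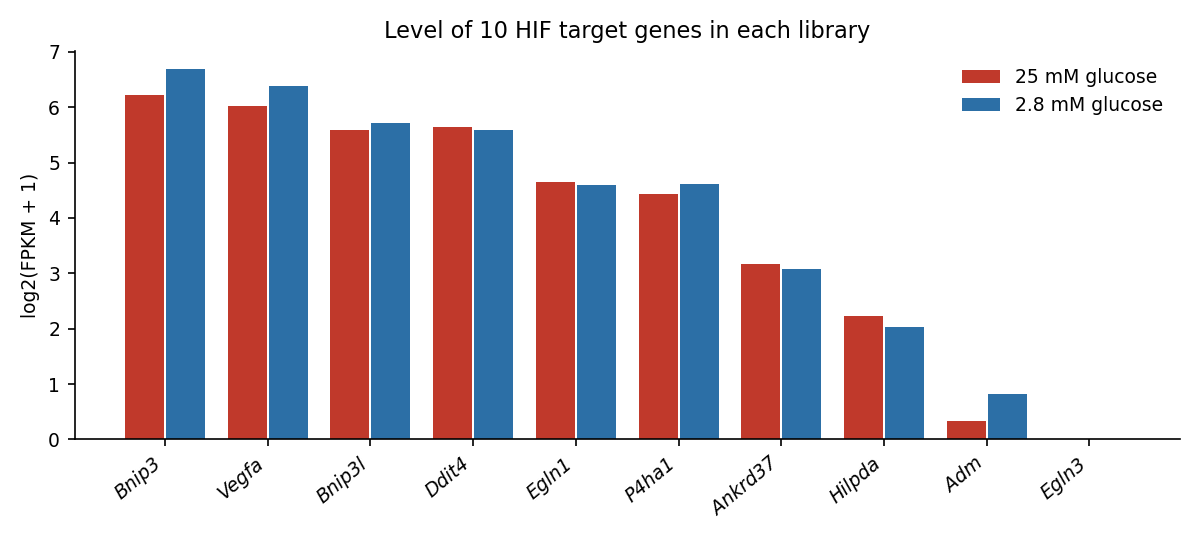
Level of each of the 10 members as log2(FPKM + 1), with 1 library at 25 mM glucose (red, left bar) and 1 at 2.8 mM glucose (blue, right bar) and genes in order of their mean. Bnip3 and Vegfa are highest in both libraries and shorter at 25 mM, and Egln3 is listed at 0 in both.

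In order of level, the members ran from Bnip3 and Vegfa through Bnip3l, Ddit4, Egln1 and P4ha1 to Ankrd37, Hilpda, Adm and Egln3, by mean FPKM. The order was the same in both libraries apart from a pair of exchanges between neighbours. Ddit4 stood above Bnip3l at 25 mM and below it at 2.8 mM, and Egln1 stood above P4ha1 at 25 mM and below it at 2.8 mM. With 1 library each, whether these neighbours differ beyond replicate spread is unknown. Bnip3 lay at percentile 87.6 of the FPKM of expressed genes at 25 mM and 91.2 at 2.8 mM, and Hilpda at percentile 20.0 at 25 mM and 16.8 at 2.8 mM.

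**Figure D3:**
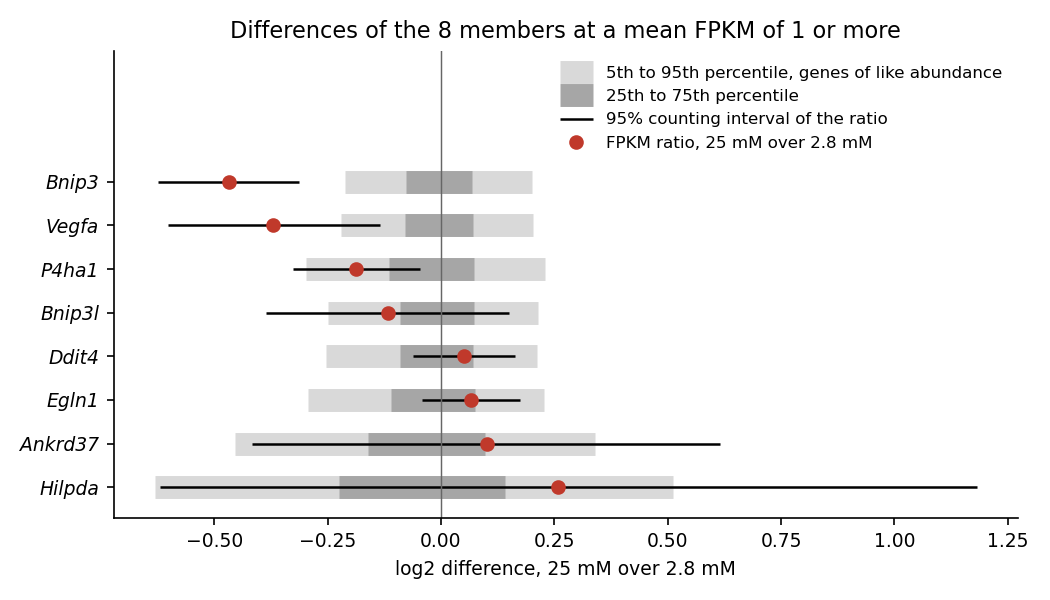
Log2 ratio of FPKM at 25 mM over 2.8 mM, without a pseudocount, for the 8 expressed members (red points), with exact 95% counting intervals for the shortest transcript of at least 500 nt (black lines). Grey bars give the 5th to 95th and 25th to 75th percentiles of protein-coding genes at 0.5 to 2 times the member's mean FPKM; the points of Bnip3 and Vegfa lie to the left of the light bars and the other 6 lie within them.

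As a group, 4 expressed members were below and 4 above their level at 2.8 mM, where 54.4% of all expressed genes were below. The median log2 change was -0.03 over the 8 members and -0.02 over all expressed genes. The members spread from -0.46 to 0.20. The position of their centre depended on the filter, since their median was -0.11 when a mean of at least 5 FPKM was required and over the 9 members above 0 with no filter, while that of all genes stayed at -0.015 and -0.02. Rescaling both libraries to the same FPKM sum moved the median of all expressed genes to 0.045 and that of the members to 0.034. Bnip3, Vegfa, P4ha1, Bnip3l and Adm stayed below 0 under every pseudocount, filter and scaling tried. Ddit4, Egln1, Hilpda and Ankrd37 stayed above 0 under the same settings. Filters and pseudocounts cannot turn the sign of a gene's change, so only the scalings could have moved a gene across 0.

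**Figure D4:**
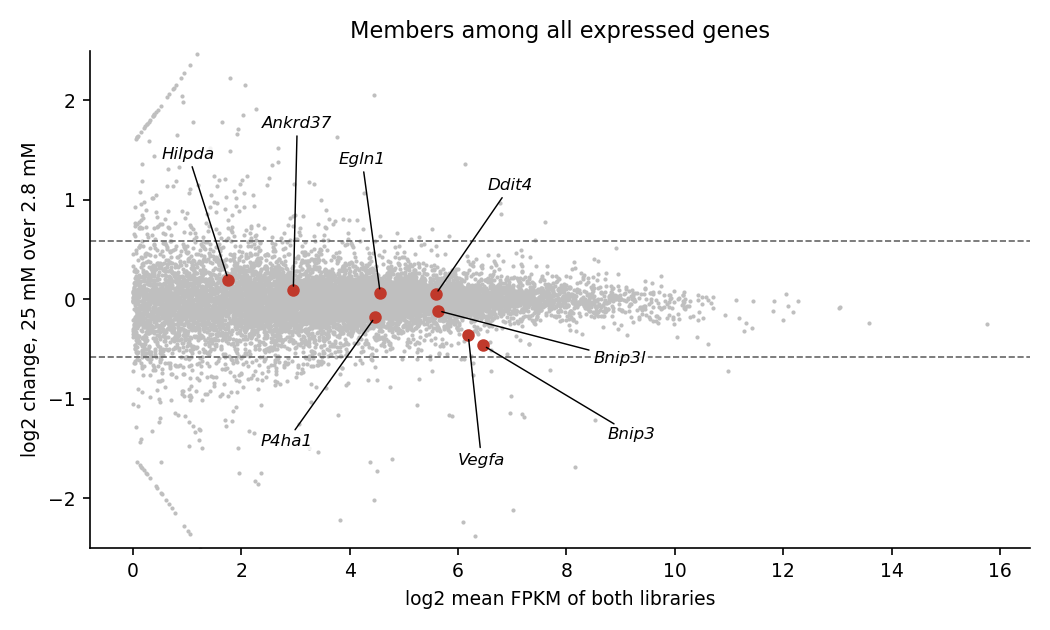
Log2 change at 25 mM over 2.8 mM, with a pseudocount of 1, against the log2 mean FPKM of both libraries for the 12694 expressed genes (grey, 60 of them beyond the drawn range) and the 8 expressed members (red). Dashed lines mark 1.5-fold; all 8 members lie between them.

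Other established HIF targets were examined in the same way. Of 62 rows found, 47 were expressed, 3 were lower by 1.5-fold or more at 25 mM and 0 were higher by that much, where 2.51% of all expressed genes were lower and 1.95% higher. Pdk1, for the kinase that closes the pyruvate dehydrogenase gate to mitochondria, was at 9.22 FPKM at 25 mM, against 15.1 FPKM at 2.8 mM (log2 change -0.65). Ak4, for a mitochondrial adenylate kinase, was at 0.656 FPKM at 25 mM against 1.64 FPKM at 2.8 mM (-0.67). The remaining one was a minor Aldoa row (ENSMUSG00000114515) at 1.14 FPKM at 25 mM, against 2.41 FPKM at 2.8 mM, also near the filter. The main row of this glycolytic aldolase gene stood at 471.8 FPKM at 25 mM against 439.2 FPKM at 2.8 mM. At the upper end were Gpi1, for glucose-6-phosphate isomerase (237.3 FPKM at 25 mM against 209.9 FPKM at 2.8 mM), and Loxl2, for a collagen cross-linking enzyme (39.9 FPKM at 25 mM against 35.8 FPKM at 2.8 mM).

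Within that list 32 of the 47 expressed rows, or 68.1%, were below their 2.8 mM level, against 54.4% of all expressed genes, and the median log2 change was -0.09. The list was chosen with earlier results of these data known, and it holds both Aldoa rows. It shares P4ha2, Plod1 and Plod2 with the collagen list, so the shares of lower genes in these lists are not separate results. Egln3 was not alone at 0. Higd1a, Hk2, Edn1, Epo, Cxcr4, Igfbp3 and Nos2, which are HIF targets in other tissues, were also listed at 0 in both libraries.

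**Figure D5:**
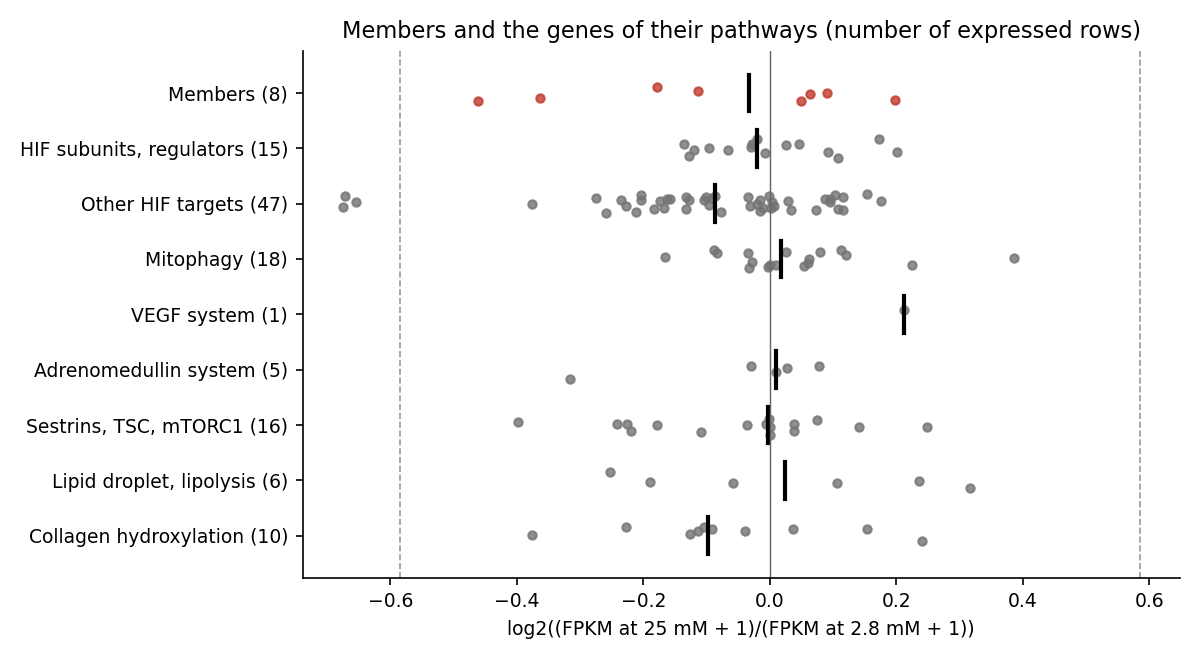
Log2 change at 25 mM over 2.8 mM, with a pseudocount of 1, of each expressed gene in the member set (red) and in 8 related gene lists (grey), with the number of expressed rows in brackets and the median as a black bar. Dashed lines mark 1.5-fold; only 3 rows of the other HIF targets lie beyond one, on the lower side.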

How the data were processed

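RNA of MIN6 cells, 1 library at 25 mM and 1 at 2.8 mM glucose, was extracted with Trizol and sequenced, per the labels. The deposited values are FPKM, 1 per gene and library, per the file headers. Per the submitters' processing notes, HISAT2, Cuffdiff and GRCm38 were used, with no version. Not given in the sources used here are the annotation release, library kit and strand setting. FPKM depends on how reads were split among isoforms and copies, and an exact 0 can be a failed estimate, so the text says listed at 0. An empty row in each file (1) was skipped.

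Groups came from the treatment label. The log2 change used a pseudocount of 1, genes with a mean of at least 1 FPKM counted as expressed, and 1.5-fold was the limit for being apart. No test was possible with 1 library per group. The members and gene lists were chosen with earlier results of these data known. All 10 members were named, and from each list the genes 1.5-fold apart, the 2 highest, the 2 lowest and fixed partners of the members. Where a list held an older and a newer symbol of a gene, only the one that the files use matched.

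Coordinates and transcripts came from GENCODE release M21 (GRCm38), which held 99.6% of the gene identifiers. Total fragments and fragment length (270 nt at 25 mM, 290 nt at 2.8 mM) were fitted to FPKM under 0.5 of genes with 1 transcript of at least 800 nt; 94.3% of 2128 values at 25 mM and 94.9% of 2367 at 2.8 mM fell within 0.1 of a whole fragment. Members' fragments followed from these and a transcript length. The fit and the 1.5-fold call were tested on simulated data, and the conversion to members' fragments was not. Promoters came from RefSeq. Alternatives were other pseudocounts, filters, thresholds and scalings, and summing rows by symbol. Scripts ran on Python 3.11.15 with SciPy 1.17.1, pandas 2.3.3, NumPy 2.4.6 and, for figures, matplotlib 3.10.9.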

Additional observations from a re-analysis of the deposited data

How the results depend on the processing

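No paired analysis was possible because each concentration had 1 library, and for the same reason no library could be left out. The counts of members 1.5-fold apart, 0 higher and 0 lower, were the same under every other pseudocount, filter, threshold and scaling, with rows summed by symbol, and under 2 settings chosen after the data were seen. Many of these settings could not have raised a count of 0. These were the higher threshold, larger pseudocount, stricter filter, the members that share little sequence, and summing by symbol. The smaller pseudocount, the absence of a filter, the scalings and the sum with rows that share sequence could have raised it. Adm, which is below the filter, had a log2 change of -1.26 at pseudocount 0.1 and -0.13 at pseudocount 5. Ankrd37 was at -0.06 when summed with the rows that share its sequence, a sum made up mostly of Ufsp2. The median over the 5 expressed members that share under 5% of their 31-mers with other genes was 0.049. Over the transcriptome, 247 genes were higher and 318 lower by 1.5-fold or more. These counts were 113 and 106 at 2-fold, 76 and 129 when a mean of 5 FPKM was required, 442 and 550 without a filter, 93 and 91 at pseudocount 5, 364 and 524 at pseudocount 0.1, and 294 and 257 after rescaling to equal FPKM sums, which turns the balance. Thresholds, filters and pseudocounts change these counts by construction. The 3 lower rows among other HIF targets became 0 at 2-fold, 1 when a mean of 5 FPKM was required, 0 at pseudocount 5 and 2 with rows summed by symbol, since the minor Aldoa row then merges into the main one. After rescaling to equal FPKM sums, the median was 0.085 for mitophagy genes and 0.060 for the sestrin, TSC and mTORC1 genes, a shift common to all genes. Without a filter the VEGF median was -0.0031, since genes near 0 then enter, and that of the lipid droplet and lipolysis genes was -0.085, against 0.106 when a mean of 5 FPKM was required. Depth limits Hilpda, Adm and Ankrd37 most.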
